A study of Homo sapiens with 6 samples.

Results

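Ribosome footprints of HEK293T cells were compared between the library labelled PRMT1 inhibitor and the library labelled PRMT4 inhibitor, called the PRMT1 label and the PRMT4 label here. These are 2 of the 6 libraries of the study, chosen by their column names, and no DMSO library enters the ratio. HEK293T derives from human embryonic kidney and expresses the large T antigen of SV40. The study had 3 treatments, a PRMT1 inhibitor, a PRMT4 inhibitor and the solvent DMSO, each with 1 ribosome library and 1 input library. The labels name no compound, dose, time, clone or passage. With 1 library a side there are no replicates, so no test was possible and each value describes these libraries alone. Levels are given in TPM, a share of transcripts scaled by length, which keeps no sequencing depth, so the depth is unknown. For each of the 60420 genes listed, the footprint ratio is log2((TPM + 1)/(TPM + 1)), PRMT1 label over PRMT4 label, less its median over protein-coding genes. A ratio of 0 is therefore the typical protein-coding gene, and that median was -0.16 before centring. Ratios were read for the 9040 genes with a mean of at least 5 TPM over the 6 libraries, of which 8117 were protein-coding.

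PRMT1 and PRMT4, which is also called CARM1, are enzymes that place asymmetric dimethyl marks on arginines. PRMT1 mainly modifies arginine in glycine-rich RGG stretches of RNA-binding proteins and in histones, whereas CARM1 modifies coactivators, chromatin remodellers and splicing factors. Ribosome profiling digests the RNA between ribosomes and sequences the fragments that remain, so a gene's footprint level follows both its RNA level and how densely ribosomes occupy it. Small nucleolar RNAs are not translated: C/D box members guide ribose methylation of ribosomal RNA, H/ACA box members guide its pseudouridylation, and most are cut out of introns of host genes.

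The RNAs that stood furthest above the diagonal between the footprint libraries were small nucleolar RNAs, so the sequences of a few are shown first. Among C/D box RNAs of at most 150 nucleotides and a mean of at least 20 TPM in the 2 libraries, the first 3 have the highest footprint ratios and SNORD86 has the lowest, and SNORA3A is the H/ACA box RNA with the highest ratio. Capitals mark a C box (TGATGA) in the first 20 bases and a D box (CTGA) in the last 20, searched on the sense strand, and in SNORA3A the ACA triplet near the 3′ end. Sequences are DNA letters, 5′ to 3′, from GENCODE 29.
SNORD34: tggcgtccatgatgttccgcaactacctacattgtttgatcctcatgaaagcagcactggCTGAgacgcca
SNORD32A: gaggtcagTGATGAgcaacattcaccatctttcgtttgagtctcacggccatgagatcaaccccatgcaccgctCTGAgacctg
SNORD18C: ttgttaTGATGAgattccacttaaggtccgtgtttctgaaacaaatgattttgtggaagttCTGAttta
SNORD86: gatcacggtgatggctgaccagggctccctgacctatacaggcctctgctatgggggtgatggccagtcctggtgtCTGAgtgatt
SNORA3A: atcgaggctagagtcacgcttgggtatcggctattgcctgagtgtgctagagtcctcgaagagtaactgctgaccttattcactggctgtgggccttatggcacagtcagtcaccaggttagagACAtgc
SNORD34 and SNORD32A lie on chromosome 19 in introns of the same gene, RPL13A, SNORD18C lies on chromosome 15 in RPL4, SNORD86 on chromosome 20 in NOP56 and SNORA3A on chromosome 11 in RPL27A. Both boxes in these exact letters were found in 54 of the 85 C/D box RNAs past the filter and in 176 of all 276 annotated (63.8%), and a missing match says only that these letters are not in these windows.

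Between 20485 and 21161 genes were above 0 in the 3 footprint libraries. Protein-coding genes held 62.3% of footprint TPM under the PRMT1 label, 70.6% under the PRMT4 label and 74.3% in DMSO, and small nucleolar and Cajal body RNAs held 3.9%, 1.07% and 0.838% in the same order. Of 9 marker genes chosen for HEK293T, 6 were above 1 TPM in both inhibitor footprint libraries, led by vimentin at 172 TPM under the PRMT1 label, 208 TPM under the PRMT4 label and 198 TPM in DMSO. The kidney factor PAX2 was at 0.93 TPM under the PRMT1 label and 1.15 TPM under the PRMT4 label. Of 9 markers of blood, liver, endothelial, stromal, heart and islet cells, COL1A1 alone was above 1 TPM, with a maximum of 3.82 TPM, and DCN, HBB and INS were at 0 throughout. In bulk lysates, fewer cells with a message and less of it per cell cannot be told apart.

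The footprint and input libraries of the same labels moved in opposite directions. Across the 8117 protein-coding genes, the footprint ratio and the input ratio, formed in the same way from the PRMT1 and PRMT4 inputs, had a Pearson correlation of -0.42 and a Spearman correlation of -0.41. The 2 ratios share no library, and genes are not independent replicates. Exchanging the labels of the 2 footprint libraries, or of the 2 inputs, would turn round the sign of that correlation. PRMT1 and CARM1 messages cannot check them, because an inhibitor acts on the enzyme. All directions below therefore follow the labels as given.

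Protein-coding footprints differed little for most genes and more often upward than downward for the rest. The ratio was -0.44 at the 5th percentile and 0.65 at the 95th, with an SD over genes of 0.35. At least 2-fold higher under the PRMT1 label were 113 genes, or 1.39% of those compared, and 8 genes, or 0.0986%, were at least 2-fold lower. At the smaller step of 1.5-fold, 505 genes (6.22%) were higher and 146 (1.8%) were lower. This split rests on the centring: 77.6% of the genes past 1.5-fold were higher, against 39.5% without centring. Most of the 113 genes had low levels, with 102 of them under 20 TPM, and their medians were 8.43 TPM under the PRMT1 label, 3.24 TPM under the PRMT4 label and 4.86 TPM in DMSO. The genes below are therefore named from those with a mean of at least 20 TPM in the 2 libraries.

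**Figure D1:**
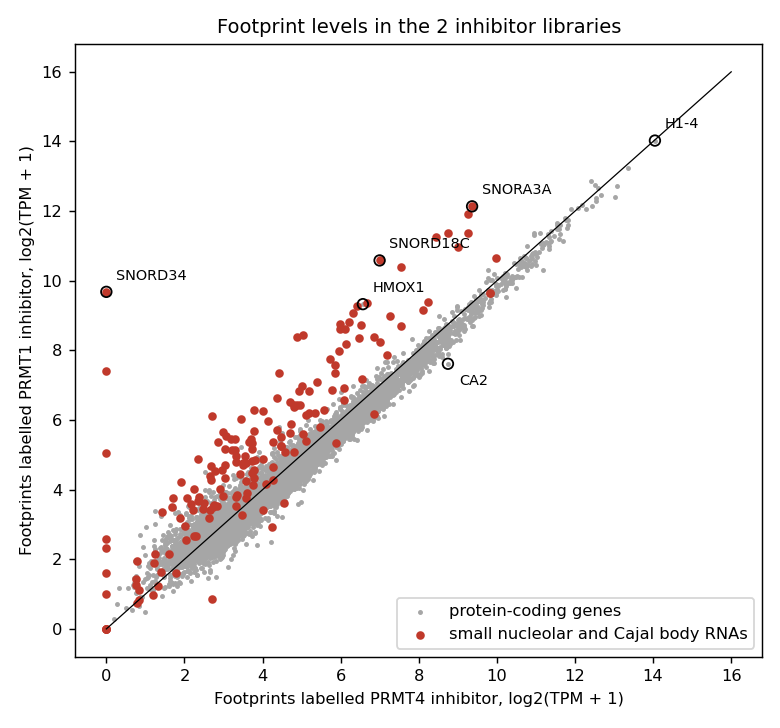
Footprint level under the PRMT1 label (vertical axis) against the PRMT4 label (horizontal axis), both as log2(TPM + 1), for tested protein-coding genes (grey) and small nucleolar and Cajal body RNAs (red); the line marks equal levels and circles mark the labelled genes. Most red points lie above the line, with SNORD34 at 820 TPM against 0, while the grey points follow the line and HMOX1 stands off it at 642 against 93.9 TPM.

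HMOX1 (ENSG00000100292.16_2, chromosome 22) had the highest ratio of the protein-coding genes compared. It encodes the stress-inducible heme oxygenase, which breaks down heme. Its footprints were at 642 TPM under the PRMT1 label, 93.9 TPM under the PRMT4 label and 33.0 TPM in DMSO, so both inhibitor libraries were above DMSO and the PRMT1 label was the highest, with a ratio of 2.92. Its input went the other way, with 21.6 TPM under the PRMT1 label, 156.5 TPM under the PRMT4 label and 7.53 TPM in DMSO, and an input ratio of -2.99. Leaving HMOX1 out changed the correlation of the footprint and input ratios only to -0.41. Other targets of NRF2, the transcription factor that drives HMOX1 under oxidative stress, lay on both sides of 0, with 9 of 19 above it and 10 below (median -0.02). GCLM, a subunit of the glutathione-synthesising enzyme, stood at 12.7 TPM under the PRMT1 label and 7.28 TPM under the PRMT4 label (ratio 0.89), and PIR at 32.9 and 19.6 TPM under the same labels (0.88). The redox proteins thioredoxin, TXN, and its reductase, TXNRD1, were at the low end with ratios of -0.30 and -0.27.

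The next highest coding genes belonged to no single pathway. CDK5RAP3, a part of the complex that attaches UFM1 to ribosomes at the endoplasmic reticulum, was at 54.3 TPM under the PRMT1 label, 20.4 TPM under the PRMT4 label and 30.2 TPM in DMSO (ratio 1.52). DCAF8, a substrate receptor of CUL4 ubiquitin ligases, was at 32.9, 14.1 and 18.3 TPM in the same order (1.32). UNKL, a zinc finger protein, was at 48.8, 21.6 and 22.03 TPM (1.30). In each of these the PRMT1 label was the highest library and DMSO lay nearer the PRMT4 label. RFNG, which adds sugars to Notch, had a ratio of 1.23, the mitochondrial fatty acid oxidation enzyme ACADVL 1.11, the Golgi protein ZFPL1 1.07, the neural protein NPDC1 1.03 and the phosphatase regulator PPP1R16A 0.98. ACADVL had 41.4 TPM in PRMT1-label footprints, 20.9 TPM in PRMT4-label footprints and an input ratio of -1.14. Among the 12 highest, 3 have uncertain values, since reads can be shared. They are ARPC4-TTLL3, a readthrough of neighbouring genes (1.93), CKMT1B, which has a near-identical copy (1.01), and the unnamed locus ENSG00000269590 (1.06). CKMT1B was also highest in DMSO, at 63.7 TPM under the PRMT1 label, 34.8 TPM under the PRMT4 label and 90.6 TPM in DMSO.

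At the low end, carbonic anhydrase CA2 was the most abundant gene. Its footprints were at 195 TPM under the PRMT1 label, 429 TPM under the PRMT4 label and 620 TPM in DMSO, a ratio of -0.97, and its input ratio was 0.89, from 206 TPM under the PRMT1 label and 97.1 TPM under the PRMT4 label. HSPA4, a cytosolic chaperone that recycles nucleotide on Hsp70, was at 27.8, 58.0 and 65.2 TPM in footprints of the PRMT1 label, the PRMT4 label and DMSO (-0.88). NDUFB8, a subunit of respiratory complex I, was at 68.6, 137.6 and 140.7 TPM in the same order (-0.84). In all of these the PRMT1 label was the lowest of the footprint libraries. The stress-responsive NDRG1 had a ratio of -0.83, the MAP kinase phosphatase DUSP9 -0.87, the membrane skeleton protein ADD3 -0.84, and the mitochondrial proteins MIX23 and IMMP1L -0.79 and -0.75. The linker histone H1-3, which binds DNA between nucleosomes, had a ratio of -0.77. The lowest of all, H1-6 at -1.17 and SERF1A at -1.16, are uncertain because H1-6 is similar to other linker histones and SERF1A has a near-identical copy. They were the only 2 of the 3701 candidate genes at least 2-fold lower, against 11 at least 2-fold higher.

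**Figure D2:**
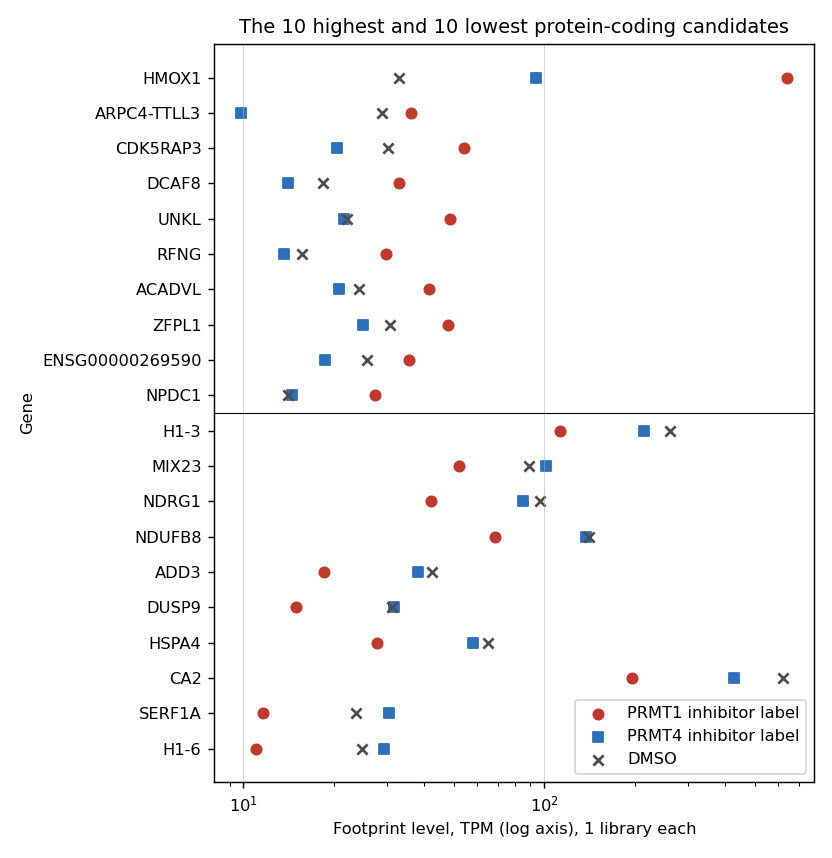
Footprint level in TPM, on a log axis, of the 10 highest and the 10 lowest protein-coding candidates, with 1 library each for the PRMT1 label (circles), the PRMT4 label (squares) and DMSO (crosses). Above the dividing line the circles lie right of the squares and below it left of them, and for HMOX1 the circle is at 642 TPM and the square at 93.9 TPM.

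Genes of the secretory and membrane system stood higher under the PRMT1 label. Of 16 measured lysosomal genes, 14 had ratios above 0, and 9 lay past 1.5-fold upward. Their median was 0.65, where 50.0% of all protein-coding genes lay above 0 and 6.22% were 1.5-fold higher. The lysosomal shift rests on genes of low level: with a mean of at least 20 TPM, 1 lysosomal gene was left, and its ratio was 0.01. At that level 2 receptors and 5 solute carriers of the lists below were left, with medians of 0.50 and 0.61. The acid glucosidase GAA was at 12.9 TPM under the PRMT1 label and 5.93 TPM under the PRMT4 label (1.16), and the sphingolipid activator precursor PSAP was at 11.9 and 5.73 TPM under the same labels (1.1). The peptidase TPP1 had a ratio of 1.06, whereas CTSB, cathepsin B, had -0.02 and the galactosidase GLA -0.06. Of 20 receptors and adhesion proteins, 17 were above 0 and 9 at least 1.5-fold higher (median 0.51). They included the lipoprotein receptor LRP8 (5.54 TPM under the PRMT1 label, 1.74 TPM under the PRMT4 label, 1.41) and the Notch ligand JAG2 (1.21). The proteoglycan SDC2 was the lowest of them at -0.39. Of 24 solute carriers and ion pumps, 23 were above 0 and 6 at least 1.5-fold higher (median 0.50), with the calcium pump ATP2B4 at 0.98 and the creatine carrier SLC6A8 at 0.82. The exception was the glucose carrier SLC2A1, at 5.73 TPM under the PRMT1 label, 11.2 TPM under the PRMT4 label and 10.5 TPM in DMSO (-0.70). Only 4 of 39 extracellular matrix genes passed the filter, all above 0.

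The machinery of the endoplasmic reticulum was also above 0 on the median. Of 22 chaperones of that compartment, 19 were above 0 and 6 at least 1.5-fold higher (median 0.40, or 0.24 without centring). The collagen isomerase FKBP10 was at 14.3 TPM under the PRMT1 label, 5.22 TPM under the PRMT4 label and 6.50 TPM in DMSO (1.46). The chaperones HSP90B1 and CANX, which encodes calnexin, had 31.9 and 52.4 TPM under the PRMT1 label and 18.1 and 30.1 TPM under the PRMT4 label, with ratios of 0.95 and 0.94. The main sensor chaperone HSPA5 had a ratio of 0.01. Of 33 genes of the translocon, the oligosaccharyltransferase and the signal recognition particle, 24 were above 0 (median 0.24, or 0.08 without centring). The glycosylation subunits STT3A (1.43) and DDOST (0.83) and the translocon partner SEC63 (0.92) were highest, while SRP19 (-0.71), SRP54 (-0.43) and SEC61G (-0.42) were lowest. Of 32 genes of transport between that compartment and the Golgi, 21 were above 0, and the median of 0.15 became -0.01 without centring.

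All 23 measured genes of the integrated stress response, the programme driven by ATF4 when initiation factor eIF2 is phosphorylated, had footprint ratios above 0, and 9 were at least 1.5-fold higher (median 0.50). All 23 had input ratios below 0 (median -0.54). Centring removes a median of -0.16 from footprint ratios and of 0.2 from input ratios. The footprint count rests on it, since the lowest ratio, 0.06, would fall below 0 without it. The footprint median was 0.34 without centring, and the input count without it is not given. ASNS, asparagine synthetase, was at 31.6 TPM under the PRMT1 label, 17.8 TPM under the PRMT4 label and 24.2 TPM in DMSO footprints (0.95). SLC3A2, an amino acid transporter subunit also counted among the solute carriers, was at 96.5, 60.7 and 57.9 TPM in the same order (0.82). CBS, a cysteine synthesis enzyme, had the highest ratio, 1.02, but DMSO was the highest library, at 12.9 TPM under the PRMT1 label, 6.67 TPM under the PRMT4 label and 16.2 TPM in DMSO. The transcription factor ATF5 had the lowest ratio of the list, 0.06. ATF4 itself, chosen after its values were seen, was at 509 TPM under the PRMT1 label, 366 TPM under the PRMT4 label and 457 TPM in DMSO (0.63). Of 21 genes induced by p53, 18 were above 0 and 5 at least 1.5-fold higher (median 0.36, or 0.20 without centring). The p53 ubiquitin ligase MDM2 stood at 110.3, 63.4 and 69.0 TPM in the PRMT1 label, the PRMT4 label and DMSO (0.95). The cell cycle inhibitor CDKN1A stood at 35.7, 21.3 and 18.3 TPM in the same order (0.87), and its input ratio was -1.17. The large T antigen of this line binds p53. Of 20 cytosolic aminoacyl-tRNA synthetases, 13 were above 0 and 4 at least 1.5-fold higher, and the median of 0.18 became 0.02 without centring and 0.08 with no filter. The list was led by the cysteine enzyme CARS1 at 0.91, with the phenylalanine enzyme subunit FARSA lowest at -0.43.

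**Figure D3:**
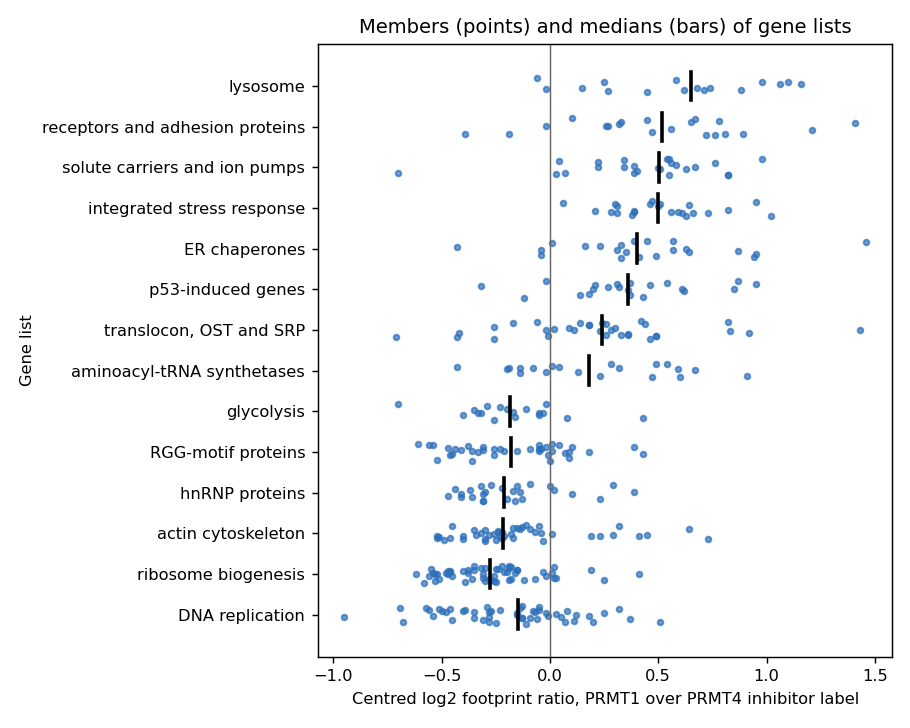
Centred log2 footprint ratio, PRMT1 label over PRMT4 label, of each tested member (points) of 14 gene lists and the list median (bars); points are spread vertically for legibility and 0 is the typical protein-coding gene. On this centred scale the points of the integrated stress response all lie right of 0, and most points of ribosome biogenesis (median -0.27) lie left of it.

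Genes of ribosome assembly, RNA binding and replication stood lower under the PRMT1 label, by small amounts. Of 56 ribosome biogenesis genes, 49 had ratios below 0, where 50.0% of all protein-coding genes did, with a median of -0.27, but only 1 was at least 1.5-fold lower. That gene was GNL3, nucleostemin, at 52.4 TPM under the PRMT1 label, 90.3 TPM under the PRMT4 label and 89.0 TPM in DMSO (-0.62). Nucleolin, NCL, was at 75.2, 124 and 167 TPM in the same order (-0.56). POLR1B, a subunit of RNA polymerase I, had a ratio of -0.58, and the C/D box core protein NOP56 was the highest at 0.41. Of 50 DNA replication genes, 38 were below 0 and 3 at least 1.5-fold lower (median -0.14). These 3 were UHRF1, which maintains DNA methylation, at 8.56 TPM under the PRMT1 label, 19.6 TPM under the PRMT4 label and 22.8 TPM in DMSO (-0.95), the helicase subunit MCM6 (-0.69) and the replication factor MCM10 (-0.68). The polymerase subunit POLD2 stood at the other end, at 0.51.

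The RNA-binding substrates of the enzymes were near these values. Of 38 measured proteins with RGG motifs, the kind of stretch PRMT1 modifies, 27 were below 0 and 1, FMR1, was at least 1.5-fold lower (-0.61), with a median of -0.18. FXR1, a relative of FMR1, had the highest ratio, 0.43. Of 26 hnRNP proteins, 20 were below 0 and none passed 1.5-fold in either direction (median -0.21). PTBP1, a splicing repressor, was at 267 TPM under the PRMT1 label, 413 TPM under the PRMT4 label and 521 TPM in DMSO (-0.47), and HNRNPF was at the top of that list at 0.39. Of 21 known CARM1 substrates, 9 were above 0 and 12 below (median -0.02). The chromatin remodeller subunit ARID1A was highest at 0.74, and the splicing factor SF3B4 lowest at -0.45. Of the 12 measured arginine methyltransferases and partners, 8 were below 0. PRMT1 itself was at 190 TPM under the PRMT1 label, 207 TPM under the PRMT4 label and 276 TPM in DMSO (0.04), and CARM1 at 63.4, 81.1 and 99.9 TPM in the same order (-0.19). The PRMT5 partners RIOK1 (-0.61) and WDR77 (-0.59) were lowest, and PRMT3, which modifies a ribosomal protein, was at 0.56.

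Ribosomal proteins showed no common shift. The 48 measured proteins of the large subunit had a median of -0.03 and the 33 of the small subunit -0.05, and RPS26 alone passed 1.5-fold. RPS26 was at 17.9 TPM under the PRMT1 label, 33.0 TPM under the PRMT4 label and 36.3 TPM in DMSO (-0.69), with an input ratio of 1.34. Elongation factors and other messages with a 5′ terminal oligopyrimidine tract had a median of 0.01, from NPM1, nucleophosmin, at -0.46 to the ribosomal scaffold RACK1 at 0.23. Among 41 initiation factors the median was -0.06, with the cap-binding inhibitor EIF4EBP1 at 0.81 and EIF1, which selects start codons, at 0.69.

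Cytoskeletal, glycolytic and core histone messages stood slightly lower on the median. Of 44 actin cytoskeleton genes, 35 were below 0 (median -0.22), from the crosslinker FLNA at 0.73 and vinculin, VCL, at 0.64 to fascin, FSCN1, at -0.52. Of 12 tubulin genes, 11 were below 0 (median -0.20) and TUBB4A was lowest at -0.62. Of 18 glycolysis genes, 16 were below 0 (median -0.18), the exceptions being the enolase ENO2 (0.43) and the aldolase ALDOA (0.08). Of 45 core histone genes, 30 were below 0 (median -0.12), and reads can be shared between these similar genes. Linker histone H1-4, the protein-coding gene with the highest footprint level, had 16678 TPM under the PRMT1 label, 16925 TPM under the PRMT4 label and 26627 TPM in DMSO (0.14), and H1-2 had 7483, 5472 and 8413 TPM in the same order (0.61).

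The 10 measured messages encoded by mitochondrial DNA, which are translated inside mitochondria, all stood at least 1.5-fold higher under the PRMT1 label, with a median of 0.83. Of all protein-coding genes, 6.22% did. The count rests on the centring, since the lowest ratio, 0.66, would not pass 1.5-fold without it. Levels were low, with a median of 4.6 TPM over the 2 footprint libraries. The median ratio was 0.67 without centring and 0.54 at a pseudocount of 5 TPM. MT-CO2 was at 14.2 TPM under the PRMT1 label, 5.59 TPM under the PRMT4 label and 10.1 TPM in DMSO (1.37), and MT-CO3 at 6.88, 2.97 and 8.56 TPM in the same order (1.15). The PRMT4 label was the lowest library for both, and DMSO lay between the labels for the first and above both for the second. These messages held 0.0109% of TPM under the PRMT1 label, 0.00594% under the PRMT4 label and 0.0105% in DMSO. The nuclear genes of the same complexes had a median of -0.08 over 75 members, and those of the mitochondrial ribosome -0.10 over 78.

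The lists of small nucleolar RNAs had the highest medians of the 48 lists. Of 85 C/D box RNAs past the filter, out of 276, 67 were at least 2-fold higher under the PRMT1 label and 1 was at least 2-fold lower. Of all tested genes that are not protein-coding, a group that includes these RNAs, 18.7% were 2-fold higher and 3.36% lower. Of the 173 higher genes in that group, 67 were C/D box RNAs and 41 were H/ACA box or Cajal body RNAs. Median levels of the C/D box RNAs were 44.7 TPM under the PRMT1 label, 12.7 TPM under the PRMT4 label and 8.76 TPM in DMSO. The median ratio was 1.86, or 1.82 without the 9 listed at 0 under the PRMT4 label. Of 79 H/ACA box and Cajal body RNAs, out of 210, 41 were at least 2-fold higher and 1 lower, with a median of 1.08 and median levels of 25.1, 11.2 and 7.45 TPM in the same order of libraries. Because these RNAs can pass the filter through the library in which they are high, the counts were repeated with a mean of at least 5 TPM in the 4 libraries outside the ratio, a rule chosen after the data were seen. Then 59 of 80 C/D box RNAs (73.8%) and 39 of 78 H/ACA box and Cajal body RNAs (50.0%) were at least 2-fold higher. Of all genes that are not protein-coding, again with these RNAs included, 17.8% were. Input ratios were below 0 for 65 of the 85 C/D box RNAs (median -0.44) and 73 of the 79 others (median -0.87). Of all genes that are not protein-coding, these RNAs included, 58.7% had input ratios below 0. Centring alone gives -0.2 to a gene at 0 TPM in both inputs, such as SNORD18C, and these input counts include such genes.

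Single small nucleolar RNAs ranged widely around these medians. SNORD34 and SNORD32A were at 820 and 168.5 TPM under the PRMT1 label and were listed at 0 both under the PRMT4 label and in DMSO, so no fold is given. SNORD18C was at 1533 TPM under the PRMT1 label, 126.7 TPM under the PRMT4 label and 108 TPM in DMSO (3.74), and was listed at 0 in every input. SNORA3A, the highest H/ACA box RNA, was at 4503 TPM under the PRMT1 label, 658 TPM under the PRMT4 label and 695 TPM in DMSO (2.93). In these the PRMT1 label stood far above the other libraries, which lay near each other. SNORD86 went the other way, at 71.0 TPM under the PRMT1 label, 115 TPM under the PRMT4 label and 160.2 TPM in DMSO (-0.54), and SNORD117 had the lowest ratio, -1.68, from levels of only 0.83 and 5.53 TPM under the PRMT1 and PRMT4 labels.

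The genes that hold these RNAs within their span, whether in an intron or not, did not share the difference. Of the 79 C/D box RNAs with a tested host, 74 had a higher ratio than the host, and the 46 hosts had a median of -0.03, from -1.07 to 0.82. RNAs at 0 TPM in both libraries were kept, so SNORD41, with 0.16 from centring alone, counts as above its host TNPO2 at 0.03. Of the 74 H/ACA box and Cajal body RNAs with a tested host, 69 were above it, and the 61 hosts had a median of -0.02, from -0.56 to 0.54. These host comparisons used the filter over all libraries, which an RNA can pass through the library in which it is high. They were not repeated with the filter on libraries outside the ratio, so the counts may favour RNAs above their hosts. RPL13A, which carries both SNORD34 and SNORD32A, had a ratio of 0.06, RPL4 -0.20 and RPL27A 0.21. NOP56, at 0.41, stood above its SNORD86. A separate list of 25 non-coding host RNAs was mixed, with 15 above 0. It ran from SNHG19 at -1.07 and SNHG21 at -0.94 to SNHG5 at 0.87 and MIR17HG, a host of microRNAs, at 1.40. That list was made by name, so its members need not carry the RNAs counted above.

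**Figure D4:**
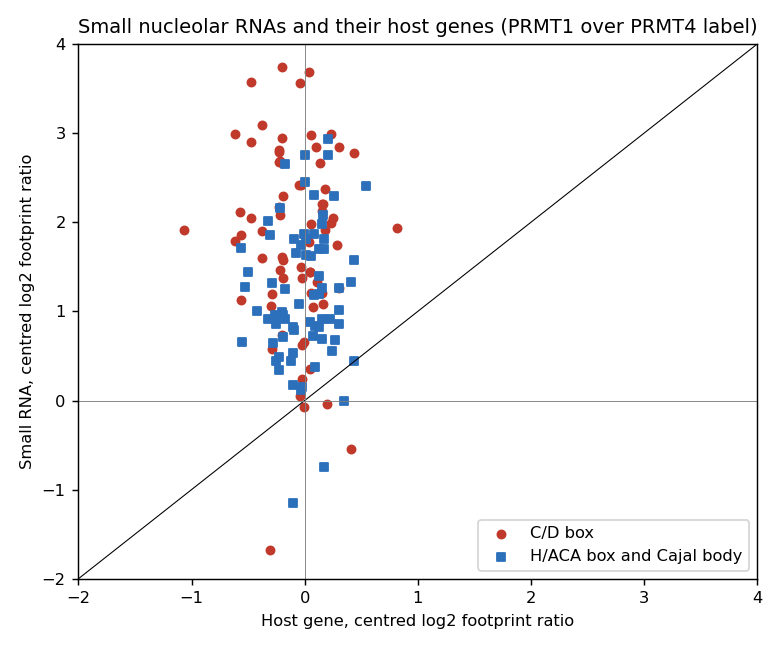
Centred log2 footprint ratio, PRMT1 label over PRMT4 label, of each small nucleolar or Cajal body RNA (vertical axis) against that of its host gene (horizontal axis), for RNAs above 0 in both libraries; the diagonal marks equal ratios. Points spread vertically above the diagonal while hosts stay near 0. Medians over all tested hosts, those of RNAs not drawn included, were -0.03 for C/D box RNAs (circles) and -0.02 for H/ACA box and Cajal body RNAs (squares). The RNAs shown passed the filter over all libraries, which includes the libraries compared.

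Other untranslated RNAs were more mixed. MALAT1, an abundant nuclear long non-coding RNA, was at 204 TPM under the PRMT1 label, 61.2 TPM under the PRMT4 label and 51.4 TPM in DMSO footprints (1.88), with an input ratio of -0.96. Of the 10 long non-coding RNAs listed, 8 were above 0 (median 0.54), including TUG1 at 0.79 and NEAT1 at 0.45, whereas JPX was at -0.25. Of all 923 genes compared that are not protein-coding, 64.8% had ratios above 0. Of the genes above 0, 32 were at 0 in both libraries, leaving 566 above 0. The 923 include the small nucleolar and Cajal body RNAs, where 78 of 85 C/D box RNAs and 76 of 79 others were above 0. The RNA of mitochondrial RNA processing, RMRP, was abundant, at 23681 TPM under the PRMT1 label, 21513 TPM under the PRMT4 label and 18764 TPM in DMSO (0.30). Spliceosomal small nuclear RNAs and their copies had 3 of 60 members at least 2-fold higher and 5 lower, and reads can be shared among them. A gene at 0 in both libraries receives a ratio of 0.16 from the centring alone. That is also the median of this list, of which 9 members were at 0 in at least 1 of the 2 libraries. The median was 0.27 without those 9 and -0.03 with no filter, so no direction is given. RNVU1-15, a variant U1 RNA, was at 25.6 TPM under the PRMT1 label, 74.3 TPM under the PRMT4 label and 31.9 TPM in DMSO (-1.34). The Y RNA RNY3 was at 328 TPM under the PRMT1 label and 181 TPM under the PRMT4 label (1.01), while RNY1 had a ratio of -0.07. The other genes at the extremes were ENSG00000251806, which has no type in GENCODE 29 (2259 TPM under the PRMT1 label and 201 TPM under the PRMT4 label), and processed pseudogenes, whose reads can come from the parent gene. Of these, SERBP1P5 and ENSG00000254373 were both at -1.78, SUMO2P1 was at -1.35, and ENSG00000237875 was listed at 0 under the PRMT1 label and in DMSO and at 83.7 TPM under the PRMT4 label.

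Level and length of the message went with the footprint ratio. When protein-coding genes were divided into 5 groups of equal size by their DMSO footprint level, which the ratio does not use, the median ratio was 0.18 in the group of lowest level and then 0.07, -0.01, -0.07 and -0.10. The share at least 1.5-fold higher was 18.2% in the lowest group and 1.17% in the highest, while the share at least 1.5-fold lower stayed between 1.54% and 2.22%. By DMSO footprints over DMSO input, a measure of ribosome loading, the share at least 1.5-fold higher was again 18.2% in the lowest group and 1.85% in the highest. By coding length, known for 8054 genes, that share was 2.3% for the shortest group (median 501 nucleotides) and 11.3% for the longest (median 3230). The GC content of the third codon position had a Spearman correlation of only 0.05 with the footprint ratio across genes, and -0.56 with the input ratio. Even so, the share at least 1.5-fold higher in footprints was 2.73% in the group of lowest GC content and 8.81% in the highest. The share at least 1.5-fold lower was 1.74% and 2.11% in these groups. The lengths of the untranslated regions had correlations of 0.03 and 0.04 with the footprint ratio. Levels, lengths and gene lists overlap, and their part in the list medians was not tested. A trend of the ratio on level was also removed, with level taken as the mean log2 level of the 2 footprint libraries compared. Unlike the DMSO level, it uses the libraries of the ratio, and it was fitted on protein-coding genes alone. The median then became 0.39 for receptors and adhesion proteins, 0.39 for solute carriers and 0.30 for the extracellular matrix (0.55 with the trend). It became 0.70 for mitochondrially encoded messages (0.83 with the trend) and -0.28 for other small structured RNAs (0.16 with it). The other list medians, 43 of 48, moved by at most 0.1.

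The inputs of the same labels set the size of the footprint difference in context. In input, 14 protein-coding genes (0.172%) were at least 2-fold higher under the PRMT1 label and 17 (0.209%) at least 2-fold lower. Of the 113 genes at least 2-fold higher in footprints, 98 had an input ratio below 0, where 50.0% of all coding genes did. The median input ratio of the 113 was -0.44, and 29 were at least 1.5-fold lower in input, where 2.56% of all coding genes were. Of the 146 genes at least 1.5-fold lower in footprints, 118 had an input ratio above 0, beside 50.0% of all. In input, 27 of the 146 were at least 1.5-fold higher, beside 3.09% of all. Footprints over input, as the difference of the centred ratios, were at least 2-fold higher for 382 genes (4.71%) and at least 2-fold lower for 163 (2.01%). These counts depend on which footprint library goes with which input. With the 2 input labels exchanged they were 78 (0.961%) and 18 (0.222%), and with the 2 footprint labels exchanged instead they were 18 and 78. For HMOX1 that difference was 5.91, the sum of opposite ratios in footprints and input, and for CA2 it was -1.86. With the input labels exchanged, these differences were -0.08 for HMOX1 and -0.09 for CA2. Either exchange turns the difference of the ratios into their sum or its negative, so the counts of one exchange mirror those of the other. The smaller counts restate the negative correlation of the ratios, and the values of HMOX1 and CA2 restate their opposite ratios. Whether labels were exchanged was not tested.

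**Figure D5:**
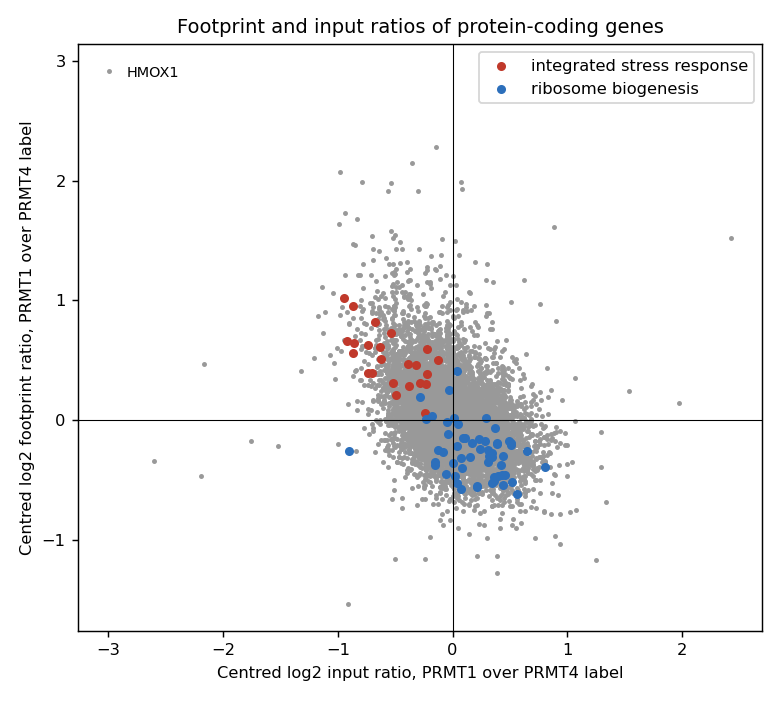
Centred log2 footprint ratio (vertical axis) against centred log2 input ratio (horizontal axis), both PRMT1 label over PRMT4 label, for tested protein-coding genes (grey), with genes of the integrated stress response in red and of ribosome biogenesis in blue. The cloud slopes downward (Pearson correlation -0.42). On these centred scales the red points all lie in the upper left, and HMOX1 stands alone at -2.99 in input and 2.92 in footprints.

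The DMSO footprint library, which the ratio does not use, lay nearer the PRMT4 label for most genes. This held for 5184 of the 8117 protein-coding genes (63.9%). It held for 407 of the 505 genes at least 1.5-fold higher under the PRMT1 label (80.6%) and for 108 of the 146 at least 1.5-fold lower (74.0%). Among the 505 higher genes the medians were 8.68 TPM under the PRMT1 label, 4.94 TPM under the PRMT4 label and 5.83 TPM in DMSO. Among the 146 lower genes they were 11.8 TPM under the PRMT1 label, 22.1 TPM under the PRMT4 label and 21.1 TPM in DMSO.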

How the data were processed

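HEK293T cells had been profiled in 6 libraries, an input and a ribosome library for each of 3 treatments. The deposited table holds TPM, computed by the authors, printed to 2 decimals with 1 column per library. The submitters' processing notes list GRCh37.p13 as the build and, as tools without their steps, RSEM 1.2.22, STAR 2.4.2a, Bowtie 1.1.2 and cutadapt 1.18. RNase I digestion and recovery of monosomes from sucrose gradients are described per the labels' protocols. The labels describe the inputs, too, as ribosome-protected RNA, whereas their columns are named mRNA. They are read here as RNA levels after the column names. The preparation of input RNA is not given in the sources at hand.

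The table listed 60461 identifiers, and 41 pseudoautosomal Y copies, all at 0, were dropped. Types were found for 56157 genes in GENCODE 29, whose build is later than the authors'. It served for names, types, chromosomes, lengths and sequences. Host genes were assigned by its own coordinates, as genes on the same strand whose span holds the RNA, with tested genes preferred. The 82 tested genes without a type were counted as not protein-coding. TPM keeps no depth, so whole reads could not be recovered and no counting interval is given. Ratios, with a pseudocount of 1 TPM that understates changes of low genes, were computed with Python 3.11.15, numpy 2.4.6, pandas 2.3.3 and statsmodels 0.14.6, and the calculation was checked on simulated data. Features of proteins had been planned, but no protein table was at hand, and coding sequences were used in their place.

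The comparison, the 48 gene lists and the other choices were made with earlier results of these data known. Genes were named by the size of the footprint ratio. The rule took the 12 highest and 12 lowest protein-coding genes with a mean of at least 20 TPM over the 2 footprint libraries, the 5 highest and 5 lowest other genes, up to 3 members at each end of a list described, and PRMT1, CARM1 and HMOX1. HSPA5, ATF4, NEAT1, RNY1 and the host genes were chosen after their values were seen. A few items that the rule covers are not reported here. Of alternatives, 9 were planned, and another filter and an exchange of labels were added after the data were seen.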

Additional observations from a re-analysis of the deposited data

How the results depend on the processing

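Of the list medians at least 0.1 from 0, 5 changed sign under a setting, and counts moved with most settings. Protein-coding genes at least 2-fold higher under the PRMT1 label numbered 113, with 183 at a pseudocount of 0.1 TPM, 22 at 5 TPM, 170 with a mean of at least 1 TPM, 22 with at least 20 TPM and 68 without centring. Those at least 2-fold lower numbered 8, with 17, 1, 22, 0 and 21 under the same settings in that order and 35 with no filter. Those at least 1.5-fold higher numbered 505, with 204 at a pseudocount of 5 TPM, 800 with a mean of at least 1 TPM, 113 with at least 20 TPM and 294 without centring. Those at least 1.5-fold lower numbered 146, with 67, 270, 27 and 450 under the same settings in that order and 404 with no filter. The share of 2-fold genes that were higher was 93.4%, against 76.4% without centring and 82.1% with no filter. Centring removes a median of -0.16, and other pseudocounts and filters admit other values and genes. Without centring, the medians of iron handling (-0.05), transport between the endoplasmic reticulum and the Golgi (-0.01) and cholesterol and fatty acid synthesis (-0.04) changed sign. So did spliceosomal small nuclear RNAs with no filter (-0.03) and other small structured RNAs with the trend on level removed (-0.28), lists with members at 0 in the libraries, to which centring alone gives 0.16. Medians ranged from 0.34 to 0.58 for the integrated stress response, 1.34 to 2.24 for C/D box RNAs and -0.43 to -0.24 for ribosome biogenesis, while lysosome ranged from 0.01, from the 1 gene left with a mean of at least 20 TPM, to 0.71. No paired analysis was possible because each group has 1 library, and no library could be left out. Depth is unknown, so low levels have no stated precision.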

Other observations

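Most lists not described above lay close to the typical protein-coding gene. Of 30 genes of the Sm, LSm and SMN complexes, which assemble small nuclear ribonucleoproteins, 23 were below 0 (median -0.15), with SNRPD3 at -0.51. Of 35 proteasome genes, 28 were below 0 (median -0.11), but PSMC1, a subunit of the regulatory particle, was at 57.1 TPM under the PRMT1 label, 33.7 TPM under the PRMT4 label and 33.9 TPM in DMSO (0.90). Of 28 cytosolic chaperones, 21 were below 0 (median -0.11). The heat-inducible HSPA1B was at 479 TPM under the PRMT1 label, 402 TPM under the PRMT4 label and 923 TPM in DMSO footprints (0.41), with an input ratio of -1.32, and it has a near-identical copy. Of 24 SR and related splicing factors, 15 were below 0 (median -0.17), and TRA2B was at 127, 233 and 205 TPM in the PRMT1 label, the PRMT4 label and DMSO (-0.71). MYC, in a list of 12 early response genes with a median of 0.05, was at 225, 386 and 456 TPM in the same order (-0.62).

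Several lists had medians within 0.2 of 0 on the log2 scale and few members past 1.5-fold. Iron handling had a median of 0.11 over 15, cholesterol and fatty acid synthesis 0.12 over 25, both of which were below 0 without centring, selenoproteins 0.17 over 15, mitosis 0.04 over 39 and interferon-stimulated genes 0.02 over 9. Hippo pathway genes had -0.11 over 17 and polyamine synthesis -0.19 over 9. Of 15 other small structured RNAs, 6 were at 0 TPM in at least 1 of the 2 libraries, and the list median of 0.16 is the ratio that centring gives a gene at 0 in both, so no direction is given. Linker histones were an exception, with a median of -0.23 over 5 members, of which 1 lay past 1.5-fold upward and 2 downward. Among 216 zinc finger genes the median was 0.00, 8 were at least 1.5-fold higher and 3 lower. The lowest of these were ZNF585B at -1.14 and ZNF529 at -1.04, from 1.82 and 3.02 TPM under the PRMT1 label and 5.94 and 8.21 TPM under the PRMT4 label.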
